A study of Mus musculus with 6 samples.

Results

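The expression of 35 genes of mitosis and the spindle was examined in mouse bone marrow-derived macrophages after 3 h of interferon-gamma (IFN-γ). The genes were taken from a fixed list of symbols, covering mitotic cyclins and kinases, the chromosomal passenger complex, kinetochore and checkpoint proteins, spindle and cytokinesis proteins, and the proliferation markers Top2a and Mki67. All 35 were among the 36706 entries of the deposited tables, and all 35 had 10 or more counts in at least 3 libraries and entered the test, beside 12968 genes tested in all. The libraries were made from macrophages grown from wild-type bone marrow with 20 ng/mL of the growth factor M-CSF, in 3 untreated and 3 IFN-γ libraries. Both groups carry the 3 h time point in their labels and shared the M-CSF culture, and the labels do not say whether the replicates came from separate mice or wells, so the p-values reflect only how far these libraries spread, which may be technical.

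Cells make most of these proteins only when they prepare to divide. Transcripts of this group are low in resting cells and peak in G2 and M phase, when the MuvB complex with B-MYB and FOXM1 activates promoters that carry a cell cycle homology region (CHR) and CCAAT boxes, the latter bound by NF-Y. M-CSF drives the division of cultured macrophages, and IFN-γ is known to slow their growth. In bulk RNA, fewer dividing cells and less RNA per dividing cell cannot be told apart.

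The promoters of 4 members are printed to show the elements that the members share and that members with different outcomes can both carry: Cdc20 and Ttk, which had the largest falls, and Ccnb2 and Top2a, which had the largest values above 0. Each is the stretch of 250 bases before the gene's start in the RefSeq promoter table, build GRCm38.p6, read along the gene's strand, with CHR letters (TTTGAA or TTCGAA) and the CCAAT box (CCAAT) in capitals on either strand. The stretches are chr4:118437344-118437593 (minus strand) for Cdc20, chr9:83834439-83834688 (plus) for Ttk, chr9:70421555-70421804 (minus) for Ccnb2 and chr11:99024190-99024439 (minus) for Top2a.
Cdc20: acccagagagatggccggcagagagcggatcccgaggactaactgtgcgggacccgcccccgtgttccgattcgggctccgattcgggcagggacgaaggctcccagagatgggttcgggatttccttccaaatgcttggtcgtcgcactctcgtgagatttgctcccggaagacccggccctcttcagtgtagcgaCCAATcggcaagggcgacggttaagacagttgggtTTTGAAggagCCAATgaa
Ttk: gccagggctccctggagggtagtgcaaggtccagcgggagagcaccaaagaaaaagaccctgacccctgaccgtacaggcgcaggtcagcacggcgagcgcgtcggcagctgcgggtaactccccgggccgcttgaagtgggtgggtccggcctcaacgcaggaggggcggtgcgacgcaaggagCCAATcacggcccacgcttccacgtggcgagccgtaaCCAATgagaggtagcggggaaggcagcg
Ccnb2: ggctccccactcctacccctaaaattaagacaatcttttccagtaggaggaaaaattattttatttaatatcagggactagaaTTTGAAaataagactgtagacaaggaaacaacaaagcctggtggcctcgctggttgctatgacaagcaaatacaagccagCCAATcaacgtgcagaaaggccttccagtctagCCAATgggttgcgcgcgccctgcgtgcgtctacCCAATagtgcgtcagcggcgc
Top2a: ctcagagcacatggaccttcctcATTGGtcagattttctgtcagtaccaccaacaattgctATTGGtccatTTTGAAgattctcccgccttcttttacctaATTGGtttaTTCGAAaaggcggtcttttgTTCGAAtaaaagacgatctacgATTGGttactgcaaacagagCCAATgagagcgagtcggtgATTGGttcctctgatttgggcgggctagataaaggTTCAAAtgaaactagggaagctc
The Cdc20 stretch held 1 CHR match 18 bases before the start and 2 CCAAT boxes, that of Ccnb2 1 CHR match and 3 CCAAT boxes, and that of Top2a 4 and 6. The Ttk stretch held 2 CCAAT boxes, and its 1 CHR match lay at base 8 after the start, outside the printed stretch. A second CHR match of Ccnb2 lay at base 5 after the start.

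Windows of 300 bases (250 before to 50 after the start) were present for 29 of the 35 members. Of these, 23 (79.3%) held CHR letters, against 21.7% of the 27025 genes in the promoter table. A CCAAT box was present in 22 (75.9%, against 41.1%), and both elements were present in 20 (69%, against 9.65%). An E2F motif (TTTGGCGC, TTTCCCGC, TTTGCCGC or TTTCGCGC on either strand) occurred in 1 member, Cdk1 (3.45%, against 2.6%). All 9 members with a window that were called lower held CHR letters, as did 14 of the other 20, and this difference was not tested. A match of letters is not a bound site.

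After 3 h of IFN-γ, 10 of the 35 genes fell and none rose, and the deepest fall was 22.8%. Calls rest on an adjusted p under 0.05 from the quasi-likelihood test of edgeR, with the Benjamini-Hochberg method applied over all genes tested. The 10 were Cdk1, Plk1, Aurka, Incenp, Cdca8, Bub1b, Ttk, Cdc20, Ect2 and Anln. They encode some of the mitotic kinases (the kinase genes Aurkb and Bub1 were not called) and a pair of chromosomal passenger proteins. The others encode checkpoint proteins, the anaphase activator and a pair of cytokinesis proteins. Over all genes tested, 16.8% were called lower and 19.6% higher, or 36.4% in either direction, against 28.6% lower and 0% higher among the members. Of the members not called, 3 had an unadjusted p under 0.05: Cenpa (0.0287) and Mad2l1 (0.0408) on the lower side and Top2a (0.0226) on the higher side, which DESeq2 called higher. The median log2 fold change of the members was -0.11, against -0.01 over all genes tested. Below 0 were 28 of 35 members, against 6739 of the 12968 genes tested. That count of members was 33 with upper quartile scaling or total counts alone and 25 with the trend on exon length removed. The 95% interval of 34 of 35 members lay within 1.5-fold in either direction, and Kif20a was the exception. In simulated data the test recovered 70% of 1.5-fold changes and 10% of the smallest changes tried. Far fewer genes were changed there than were called here, so these rates do not give the chance of calling a member. Cdca8, for example, was called at a log2 fold change of -0.18. A member that was not called need not be unchanged, since its interval can include small changes.

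The falls are small, and their number depended on how the libraries were scaled and on single libraries. With upper quartile scaling or total counts alone, 20 members were lower and none higher. These scalings moved the median log2 fold change of all genes by -0.147 and -0.17 and put 31.6% and 34.9% of all genes on the lower side, against 16.8%. The gap between the median of the members and that of all genes was -0.0980 with the main TMM scaling, -0.0986 with upper quartile scaling and -0.0988 with total counts. Scaling moves all genes by nearly the same amount, so this gap could hardly change and says nothing about stability. Leaving out untreated replicate 1, 2 or 3 gave 4, 14 and 3 members lower, and leaving out IFN-γ replicate 1, 2 or 3 gave 6, 2 and 2. Over all genes, the same fits gave 1915, 2793 and 1669 lower, then 1742, 1451 and 1491, against 2176 in the main fit. The share of members called lower was above that of all genes where 14 or 6 members were lower. It was below that of all genes in the rest of these fits. At an adjusted p under 0.01, 2 members and 1242 of all genes were lower, also a smaller share of the members. Cdc20 and Ttk stayed lower in all 17 alternative fits. The bar plot of calls by setting gives the number of members called in each.

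**Figure D1:**
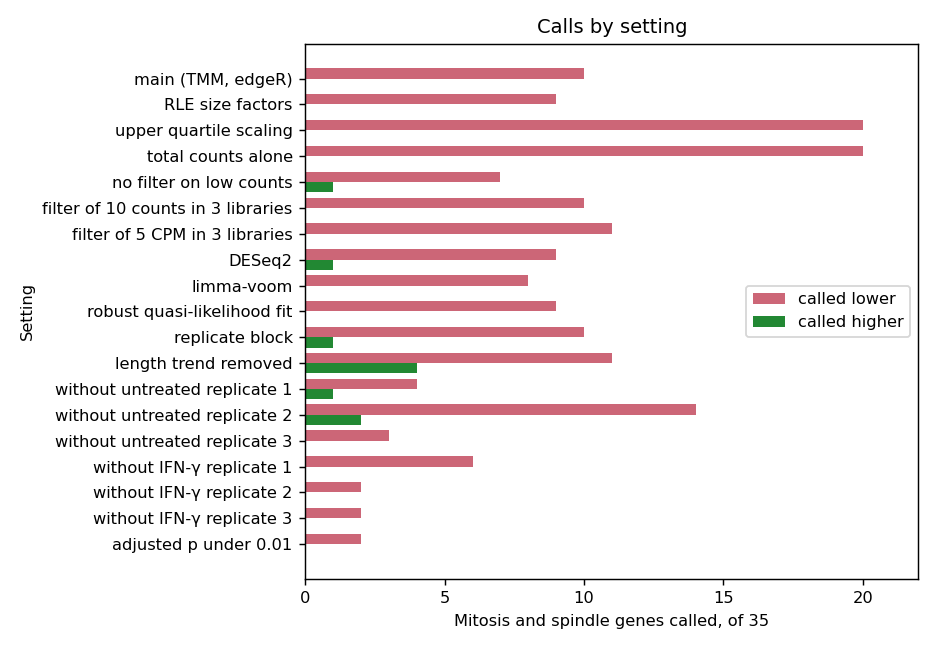
Number of the 35 mitosis and spindle genes called lower (red) or higher (green) with IFN-γ under each setting, at an adjusted p under 0.05 except in the last row (0.01). The count called lower runs from 2 to 20, and the count called higher from 0 to 4.

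Scaled by TMM, the summed level of the 35 genes was 1588, 1496 and 1597 CPM (TMM-scaled counts relative to library size, times 1e+06) untreated and 1519, 1496 and 1487 CPM with IFN-γ, so the groups overlapped at the value of untreated replicate 2. The mean log2 CPM of the members was 5.15, 5.07 and 5.17 untreated and 5.03, 5.03 and 5.02 with IFN-γ, without overlap. As a plain share of each library's counts the members took 0.17%, 0.154% and 0.173% untreated and 0.144%, 0.141% and 0.139% with IFN-γ, also without overlap. This share is not scaled by TMM. With total counts alone the median log2 fold change of all genes tested was -0.18, so part of this difference is common to all genes. Single libraries held between 98 (Kif20a, untreated replicate 2) and 7686 counts (Top2a, IFN-γ replicate 1) of a member. For 11 members (31.4%) every IFN-γ library was below every untreated library, against 24.2% of all genes tested, and for 3 (8.57%) every IFN-γ library was above, against 25.9%.

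**Figure D2:**
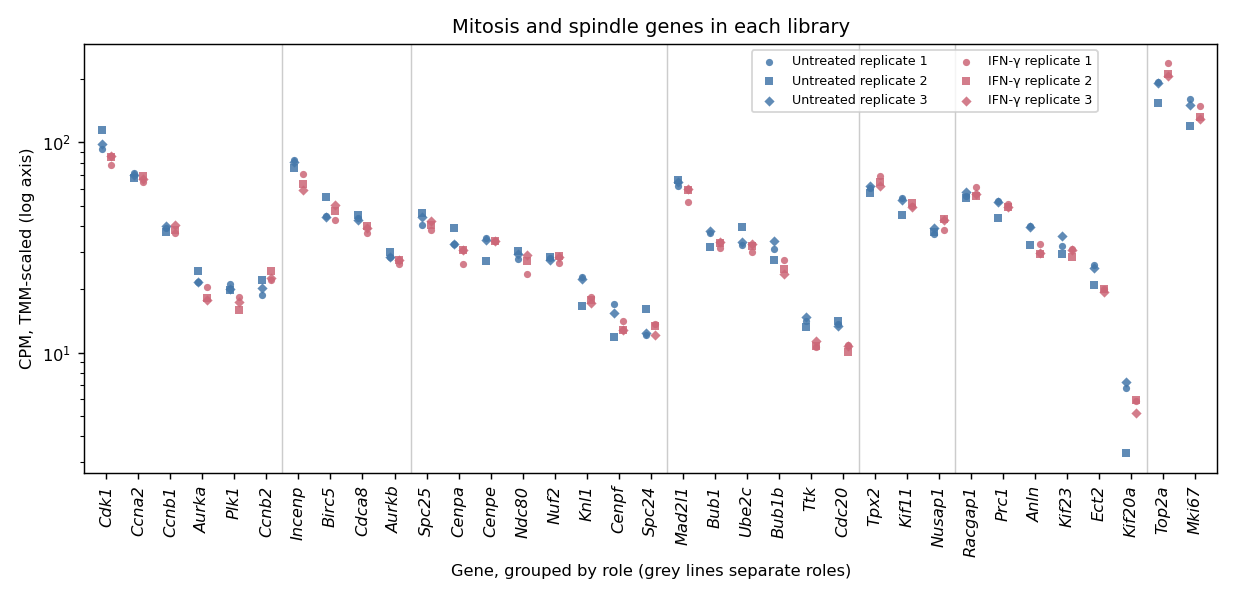
CPM of each of the 35 genes (log axis) in the 3 untreated (blue) and 3 IFN-γ (red) libraries, with a marker shape per replicate number and genes grouped by role. The groups lie close together for most genes, and untreated replicate 2 (blue squares) stands apart for several, most of all for Kif20a at 3.32 CPM.

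Total counts ran from 28133342 to 34233607 per library, and 3 counts corresponded to 0.089 to 0.101 CPM, a floor that covers counting error only. As a check of the labels, Irf1, an early IFN-γ target, went from 32.4, 33.5 and 33.5 CPM untreated to 956, 928 and 940 with IFN-γ. The 8 macrophage markers were tested, and 4 were higher and none lower, at a summed 19510 to 20940 CPM untreated and 20870 to 22040 with IFN-γ. Granulocyte markers moved with the groups: 5 of 9 tested were higher, at a summed 81.5 to 107 CPM untreated and 140 to 153 with IFN-γ, while Ly6g had at most 2 counts in any library. Of 5 progenitor markers tested, 1 (Gata2) was higher, at 8.26 to 8.95 and 9.08 to 10.5 CPM summed over the list of 7. Dendritic cell markers summed to 2.52 to 2.88 and 6.25 to 6.93 CPM with 2 of 5 higher. Of 2 T and NK cell markers tested, 1 was higher, at 2.27 to 2.70 and 2.80 to 3.67 CPM summed over the list of 8. Of those 8, 5 had at most 3 counts in every library. B cell, erythroid, mast cell and stromal markers summed to at most 5.28 CPM, with none called. The part of any such cells in the results below was not tested.

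Among the cyclins and mitotic kinases, 3 of 6 fell, against 16.8% of all genes tested. The roles here and below hold few genes each, so their shares say little beside that value. Cdk1, the kinase that drives entry into mitosis, was at 92.8, 113.8 and 98.0 CPM untreated and at 78.1, 85.5 and 86.1 with IFN-γ. The groups did not overlap, and the log2 fold change was -0.29 ± 0.09 (SE, adjusted p = 0.0306). Plk1, the polo-like kinase of centrosome maturation and mitotic entry, was at 21.2, 19.8 and 20.0 CPM untreated and at 18.3, 15.96 and 17.3 with IFN-γ, a log2 fold change of -0.24 ± 0.08 (adjusted p = 0.038). Aurka, the spindle pole kinase Aurora A, was at 21.6, 24.3 and 21.6 CPM untreated and at 20.5, 18.1 and 17.7 with IFN-γ (-0.26 ± 0.09, adjusted p = 0.0427). Every IFN-γ library was below every untreated one for these 3 kinases. Their calls did not hold in every fit. Cdk1 lost its call without untreated replicate 3 or any 1 IFN-γ library (adjusted p up to 0.0847). Plk1 (up to 0.157) and Aurka (up to 0.152) each lost theirs under 6 of 17 alternatives.

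The cyclins that partner Cdk1 were not called. Ccna2, the S and G2 cyclin, was at 69.6 ± 1.68 CPM untreated and 66.9 ± 1.95 with IFN-γ (mean ± SD, n = 3 each), with a 95% interval of the log2 fold change from -0.18 to 0.07. Ccnb1, the main mitotic cyclin, was at 38.9 ± 1.27 and 38.5 ± 1.63 CPM, with an interval from -0.15 to 0.13. Ccnb2, a second B-type cyclin, was at 18.7, 22.02 and 20.2 CPM untreated and at 22.2, 24.3 and 22.6 with IFN-γ. Every IFN-γ library of Ccnb2 lay above every untreated one, the log2 fold change was 0.18 ± 0.08 (adjusted p = 0.123), and it was called higher without untreated replicate 2 and when the trend of each library on exon length was removed. Ccna2 was called lower with upper quartile and total count scaling.

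Of the 4 chromosomal passenger genes, 2 fell. This complex corrects faulty attachments of chromosomes to the spindle and then moves to the midzone for cytokinesis. Incenp, its scaffold, was at 82.6, 75.4 and 80.4 CPM untreated and at 70.3, 63.0 and 59.5 with IFN-γ, a log2 fold change of -0.31 ± 0.07 (adjusted p = 0.0137). Cdca8, which encodes Borealin, was at 43.5, 45 and 42.6 CPM untreated and at 37.1, 39.9 and 39.0 with IFN-γ (-0.18 ± 0.06, adjusted p = 0.0453). Neither gene's groups overlapped. Incenp lost its call without IFN-γ replicate 2 or 3 (adjusted p up to 0.0637), while Cdca8 lost its call under 9 of 17 alternatives (up to 0.122). Aurkb, the kinase of the complex, was at 29.1 ± 0.903 and 27.1 ± 0.713 CPM, without overlap (-0.10 ± 0.06, adjusted p = 0.223). It was called lower with upper quartile and total count scaling. Birc5, which encodes Survivin, was at 47.8 ± 5.99 and 46.7 ± 3.91 CPM (-0.03 ± 0.10, adjusted p = 0.829).

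No kinetochore or centromere gene was called in the main fit, and 7 of 8 had a log2 fold change below 0, against 6739 of the 12968 genes tested. With upper quartile and total count scaling, Ndc80, Spc25, Knl1 and Cenpa were called lower. Kinetochores are the protein assemblies that bind chromosomes to microtubules, and the NDC80 complex is their microtubule-binding part. Of its subunits, Ndc80 was at 29.2 ± 1.19 and 26.7 ± 2.86 CPM (-0.13 ± 0.09, adjusted p = 0.303) and Spc25 at 43.5 ± 2.94 and 40.2 ± 2.01 CPM (-0.11 ± 0.07, adjusted p = 0.267). Nuf2 was at 28.1 ± 0.473 and 28.0 ± 1.26 CPM, with a 95% interval from -0.15 to 0.14. Spc24 was at 13.6 ± 2.16 and 13.1 ± 0.819 CPM, with an interval from -0.32 to 0.22. All 4 intervals included 0, and that of Spc24 was the widest.

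Cenpa, the histone variant that marks centromeres, had the largest difference of the kinetochore group. It was at 33.0, 39.2 and 32.9 CPM untreated and at 26.4, 30.7 and 30.9 with IFN-γ, without overlap (-0.26 ± 0.10, adjusted p = 0.0714). Cenpa was called lower under 5 of 17 alternatives, among them the replicate block and removal of the length trend. Knl1, the platform of checkpoint signalling at kinetochores, was at 20.6 ± 3.42 and 17.8 ± 0.579 CPM (-0.21 ± 0.12, adjusted p = 0.206). Cenpe, a kinesin motor that moves chromosomes to the spindle equator, was at 32.2 ± 4.40 and 34.0 ± 0.115 CPM (0.08 ± 0.10, adjusted p = 0.585). Cenpf, a large coiled-coil kinetochore protein, was at 14.7 ± 2.63 and 13.3 ± 0.788 CPM (-0.15 ± 0.13, adjusted p = 0.409). Without untreated replicate 2, both Knl1 and Cenpf were called lower.

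The spindle checkpoint holds back anaphase until every kinetochore is attached, by keeping CDC20 from activating the anaphase-promoting complex (APC/C). Of the 6 genes of this group, 3 fell, and the other 3 had log2 fold changes below 0. Cdc20 was at 13.6, 14.2 and 13.3 CPM untreated and at 10.9, 10.1 and 10.8 with IFN-γ. The log2 fold change was -0.37 ± 0.07, a fall of 22.8% (adjusted p = 0.00422), and it stayed between -0.54 and -0.33 over the alternatives, with adjusted p from 0.000526 to 0.0286. Its counts were 410, 419 and 450 untreated and 353, 310 and 335 with IFN-γ. Ttk, the checkpoint kinase MPS1, was at 14.2, 13.3 and 14.8 CPM untreated and at 10.6, 10.8 and 11.4 with IFN-γ (-0.37 ± 0.08, adjusted p = 0.00611). The groups were apart for both genes, and both passed an adjusted p of 0.01 as well. The tables place Cdc20 on chromosome 4, minus strand, from 118290098 to 118294540, and Ttk on chromosome 9, plus strand, from 83716704 to 83754443. These tables name no build, and their coordinates are not those of the promoter table.

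Bub1b, which encodes the checkpoint protein BUBR1, was at 31.0, 27.5 and 33.8 CPM untreated and at 27.5, 24.9 and 23.7 with IFN-γ. Its groups met at untreated replicate 2, and its call (-0.28 ± 0.09, adjusted p = 0.0496) was lost under 7 of 17 alternatives, with adjusted p up to 0.17. Bub1, the kinase that recruits checkpoint proteins, was at 35.6 ± 3.19 and 32.6 ± 1.03 CPM (-0.12 ± 0.08, adjusted p = 0.255). Mad2l1, the MAD2 inhibitor of CDC20, was at 64.3 ± 2.20 and 57.1 ± 4.47 CPM, without overlap (-0.17 ± 0.07, adjusted p = 0.0938). Ube2c, the ubiquitin-conjugating enzyme of the APC/C, was at 32.4, 39.7 and 33.6 CPM untreated and at 30.0, 32.2 and 32.8 with IFN-γ (-0.15 ± 0.09, adjusted p = 0.214). Per length, Ube2c had the highest untreated level of all members, at 82.0 ± 3.02 TPM (the length-corrected unit, as deposited), followed by Top2a at 75.3 ± 14.3 TPM, a difference within their spread. Knl1, Kif20a and Cenpf were the lowest per length, at 3.34 ± 0.770, 3.29 ± 1.39 and 2.85 ± 0.685 TPM, and did not differ beyond their spread. Bub1, Mad2l1 and Ube2c were each called lower with upper quartile and total count scaling.

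Members could also be set against each other inside a library, where scaling cancels. Cdc20 and Ccnb2 were chosen after their values were seen, and their exon lengths are similar at 1784 and 1541 bases. There were 73, 64.4 and 66.1 counts of Cdc20 per 100 counts of Ccnb2 untreated and 49.1, 41.6 and 47.9 with IFN-γ. The ratio was lower in each IFN-γ library than in any untreated one, and this difference was not tested. The groups of both genes were already apart, in opposite directions, so the choice of this pair fixed that order in advance.

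**Figure D3:**
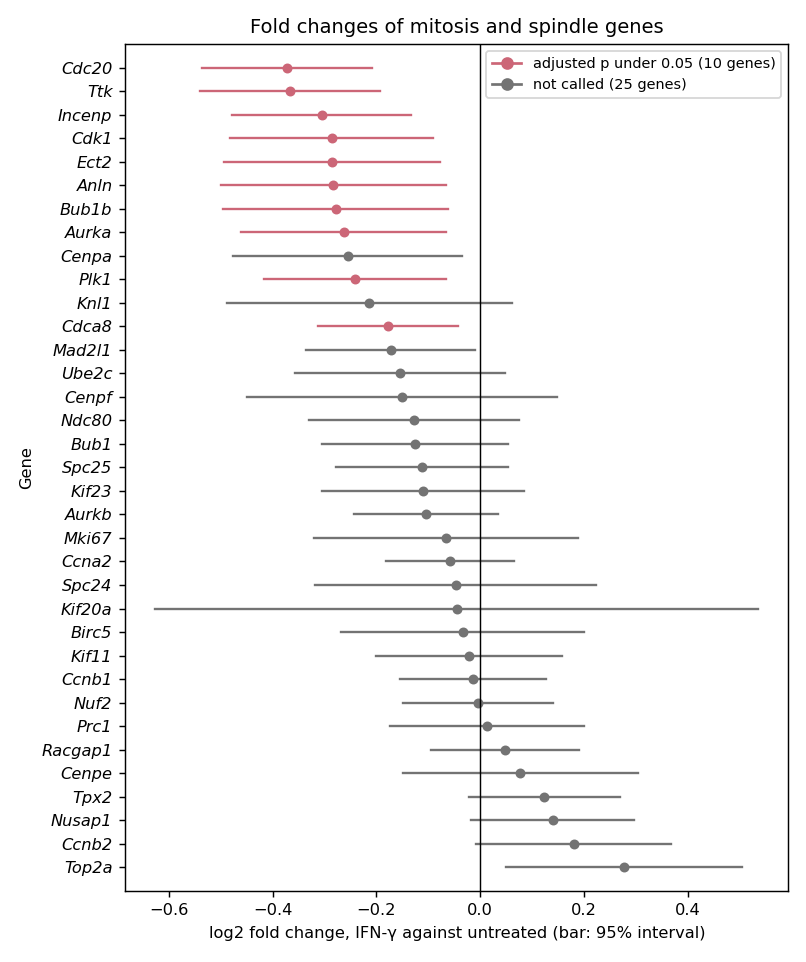
Log2 fold change (IFN-γ against untreated, x axis) of each of the 35 genes with its 95% interval, ordered from the deepest fall to the highest value. Red marks the 10 genes called lower, from Cdc20 at -0.37 to Cdca8 at -0.18, and grey the 25 genes not called, with the widest interval at Kif20a.

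None of the 3 spindle assembly genes was called. Tpx2, which activates Aurora A and nucleates microtubules, was at 60.8, 57.5 and 61.8 CPM untreated and at 69.3, 64.8 and 62.1 with IFN-γ, just without overlap (0.12 ± 0.06, adjusted p = 0.166). Nusap1, a microtubule-bundling protein gene, was at 37.7 ± 1.303 and 41.5 ± 2.72 CPM (0.14 ± 0.07, adjusted p = 0.149). Both were called higher when the trend on exon length was removed (adjusted p = 0.0356 and 0.0436) and lay below 0 with total counts, at -0.05 and -0.03. Kif11, the motor that separates spindle poles, was at 50.9 ± 4.95 and 50.1 ± 0.974 CPM, with a 95% interval from -0.20 to 0.16.

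Of the 6 central spindle and cytokinesis genes, 2 fell. Ect2, the exchange factor that switches on RhoA for the cleavage furrow, was at 26.1, 21.04 and 25.3 CPM untreated and at 20.1, 20.0 and 19.3 with IFN-γ (-0.28 ± 0.09, adjusted p = 0.0392). Anln, the furrow scaffold anillin, was at 40.1, 32.4 and 39.4 CPM untreated and at 32.9, 29.3 and 29.9 with IFN-γ (-0.28 ± 0.09, adjusted p = 0.0467). For both genes untreated replicate 2 was the lowest of its group, and for Anln it lay below the highest IFN-γ library. Ect2 lost its call without any 1 library other than untreated replicate 2 (adjusted p up to 0.126), and Anln likewise and with limma-voom (up to 0.161).

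Racgap1, which forms the centralspindlin complex with the product of Kif23, was at 55.5, 54.2 and 58.3 CPM untreated and at 61.2, 55.7 and 56.7 with IFN-γ (0.05 ± 0.06, adjusted p = 0.599). Kif23 itself was at 32.5 ± 3.25 and 30.1 ± 1.36 CPM (-0.11 ± 0.08, adjusted p = 0.353), and was called lower with upper quartile and total count scaling. Prc1, which bundles the antiparallel microtubules of the midzone, was at 49.3 ± 5.10 and 49.8 ± 1.15 CPM, with a 95% interval from -0.17 to 0.20. Kif20a, a midzone kinesin, was at 6.81, 3.32 and 7.26 CPM untreated and at 5.85, 5.93 and 5.15 with IFN-γ. Its untreated libraries spanned both sides of the IFN-γ libraries, and the interval from -0.63 to 0.54 leaves its direction undetermined at this spread. Exons of Kif20a share 60.6% of their length with Cdc23 on the other strand, and Cdc23 had a mean of 842.8 counts against 180 for Kif20a, so its count is uncertain as a single gene.

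Top2a and Mki67, the proliferation markers with the highest CPM of the list, were not called. Top2a, the topoisomerase that untangles sister chromatids, was at 193.6, 154.4 and 191.9 CPM untreated and at 236.8, 211.8 and 205.9 with IFN-γ. Every IFN-γ library was above every untreated one, with a log2 fold change of 0.28 ± 0.10 (adjusted p = 0.0596), the highest of all members. It was called higher under 6 of 17 alternatives, which were no filter, DESeq2, the replicate block, removal of the length trend, and the fits without untreated replicate 1 or 2. Without untreated replicate 2 its value was 0.18 (adjusted p = 0.0456). Mki67, which encodes Ki-67, the coat of mitotic chromosomes, was at 143.1 ± 21.3 and 136.7 ± 10.1 CPM (-0.07 ± 0.11, adjusted p = 0.69), and was called lower without untreated replicate 2 (adjusted p = 0.0473).

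The untreated libraries differed from each other in a way that followed exon length. Across the 35 members, the log2 CPM of a library minus the mean of the other untreated libraries had a Pearson correlation with log2 exon length of 0.736 for replicate 1, -0.68 for replicate 2 and 0.538 for replicate 3, a description over genes of the same libraries. Replicate 2 thus had the opposite sign to the others. For each gene these differences cancel when summed over the untreated libraries, so the signs could not all agree. All 8 members over 4500 bases were lower in replicate 2 than the mean of the others, by values from -0.45 to -0.25, and all 6 under 2000 bases were higher, from 0.06 to 0.38. The slope of the same difference over all genes was 0.1, -0.139 and 0.0388 per doubling of length for untreated replicates 1, 2 and 3. The IFN-γ libraries also differed by length. Their correlations over the members were 0.442, -0.327 and -0.372 for replicates 1, 2 and 3. Their slopes over all genes were 0.0602, -0.0236 and -0.0366. Without untreated replicate 2, 14 members were lower and 2 higher. Knl1, Cenpf, Bub1, Kif20a and Mki67 were added to the lower side, Aurka left it, and Ccnb2 and Top2a were called higher. With the length trend of every library removed and none left out, 11 members were lower and 4 higher, these being Ccnb2, Tpx2, Nusap1 and Top2a. The fold changes themselves had a Pearson correlation of 0.06 with log2 length.

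**Figure D4:**
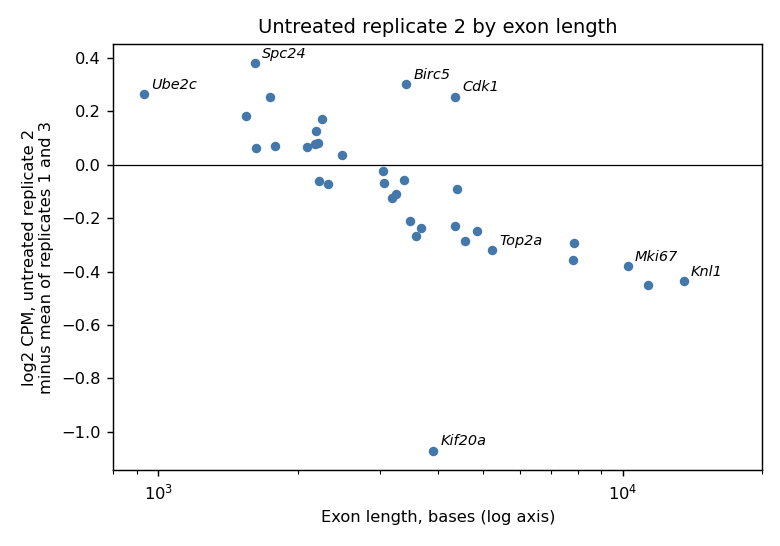
Log2 CPM of each of the 35 genes in untreated replicate 2 minus the mean of untreated replicates 1 and 3 (y axis) against exon length (log x axis). Short genes such as Ube2c lie above 0 and long genes such as Mki67 and Knl1 below 0, with Kif20a the lowest at -1.07.

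Other cell cycle genes were compared by lists chosen for their roles. Of 76 other mitotic genes, 27 fell (35.5%, against 16.8% of all genes tested) and 2 rose (2.63%, against 19.6%), with a median log2 fold change of -0.17. The largest changes among them were in regulators of mitotic entry and exit: Wee1, the kinase that restrains CDK1, fell by 0.79 ± 0.06 on the log2 scale (adjusted p = 3.44e-05), Bora, a cofactor for activating PLK1, had -0.67 ± 0.07 (adjusted p = 0.000172), and Cdca2, a phosphatase subunit of mitotic exit, had -0.63 ± 0.11 (adjusted p = 0.00322). Each of these differences was deeper than that of Cdc20. With total counts 50 of the 76 were lower and with upper quartile scaling 47, and the count ran from 14 without IFN-γ replicate 2 to 33 without untreated replicate 2. Leaving out IFN-γ replicate 3 gave 15, and leaving out untreated replicate 3 gave 16.

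DNA replication genes had more and deeper falls. Of 51 genes, 37 fell (72.5%, against 16.8% of all genes tested) and 1, Pola2, rose (1.96%, against 19.6%). The median was -0.39, and the mitosis and spindle genes had 28.6% lower and a median of -0.11. Orc1, a subunit of the origin recognition complex, fell from 6.88 ± 0.864 to 3.45 ± 0.0347 CPM (-0.998 ± 0.11, adjusted p = 0.000267), and the replicative polymerase subunit gene Pole2 fell by 0.87 ± 0.08 on the log2 scale (adjusted p = 5.14e-05). Cdc6, which loads the MCM helicase, had -0.98 ± 0.07 (adjusted p = 2.07e-05). The count of replication genes called lower stayed between 30 and 44 over the alternatives and the stricter threshold, and that of the mitosis and spindle genes between 2 and 20. The difference between the lists was not tested.

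Transcription regulators of the cell cycle and the APC/C, condensin and cohesin genes completed the comparison. Of 26 regulators, 13 fell (50%, against 16.8% of all genes tested) and 3 rose (11.5%, against 19.6%), with a median of -0.24. The activator genes E2f1 and E2f2 fell by 0.53 ± 0.06 and 0.65 ± 0.07 on the log2 scale (adjusted p = 0.000353 and 0.000193), and the CDK inhibitor gene Cdkn1a rose by 1.51 ± 0.06 (adjusted p = 5.35e-07). Of 39 APC/C, condensin and cohesin genes, 8 fell (20.5%, against 16.8% of all genes tested) and 4 rose (10.3%, against 19.6%), with a median of -0.03, so the share that fell was near that of all genes. Fbxo5, the APC/C inhibitor EMI1, fell by 0.54 ± 0.10 (adjusted p = 0.00366), the cohesin core gene Smc3 by 0.47 ± 0.06 (adjusted p = 0.000647) and Cdca5, which encodes the cohesin protector Sororin, by 0.41 ± 0.09 (adjusted p = 0.00751).

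**Figure D5:**
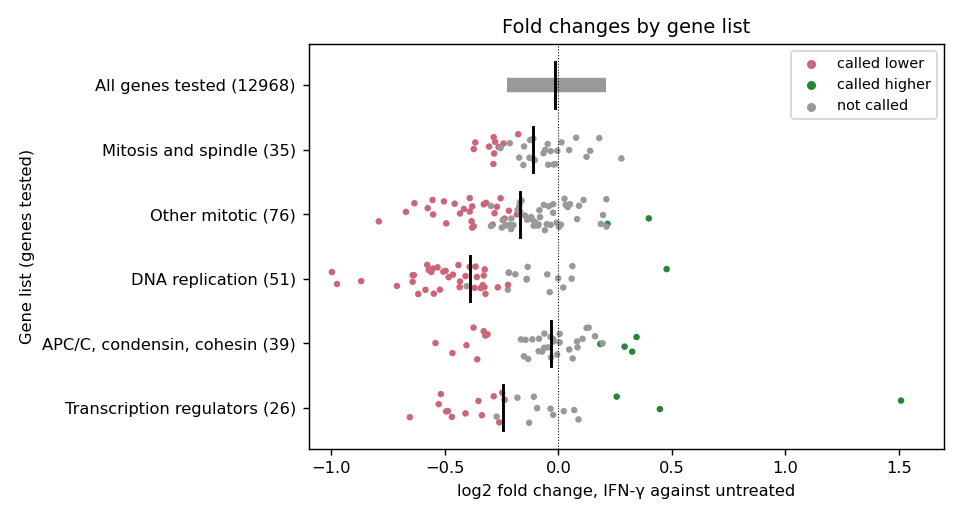
Log2 fold changes (IFN-γ against untreated, x axis) by gene list, 1 point per gene, with black lines at the medians and a grey bar from the lower to the upper quartile of all genes tested. The mitosis and spindle genes, with a median of -0.11, lie nearer to 0 than the DNA replication genes, with a median of -0.39.

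Several members share exon bases or sequence with other genes, and the sources used here do not say how such reads were counted. Ccna2 shares 11.2% of its exon length with Exosc9 on the other strand, Aurka 9.43% with Cstf1, Nusap1 6.82% with Oip5 and Cdc20 2.97% with Elovl1. Elovl1 had a mean of 5233 counts against 379.5 for Cdc20, and its own log2 fold change was 0.09 ± 0.05 (adjusted p = 0.206). Exosc9 had 0.16 ± 0.07 (adjusted p = 0.104) and Cstf1 -0.08 ± 0.06 (adjusted p = 0.403). Oip5 was called lower, at -0.28 ± 0.09 (adjusted p = 0.0455). Whether reads of these genes entered the members' counts was not tested. Of the 50-base stretches in the transcripts, 25.2% of Kif20a, 23.4% of Ccnb1, 16% of Ube2c, 11.4% of Ccna2, 10.6% of Cdc20 and 10.4% of Plk1 also occur in another gene's entry. The main such entries were Cdc23 for Kif20a, Ccnb1-ps for Ccnb1, Tnnc2 for Ube2c, Exosc9 for Ccna2, Gm7856 for Cdc20 and Plk-ps1 for Plk1. The other members had under 10%.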

How the data were processed

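The members and gene lists were chosen with earlier results of these data known. Reads were aligned with HISAT2 to mm10, per the submitters' processing notes; the sources used here do not give the counter or its use of strand, and the libraries were stranded, per the labels' protocols. Per the file headers, the authors deposited a count, a TPM and an FPKM for each gene. The deposited counts are whole numbers and were tested. The deposited TPM, which equal those recomputed from counts and exon length to within 7.3e-11, were used for levels per length, and the deposited FPKM were not used. The tables' coordinates are not those of GRCm38.p6 (1.7% of 35270 shared symbols had the same start and end).

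Genes passed filterByExpr (minimum count 10, total 15), libraries were scaled by TMM, and groups, taken from the treatment label, were compared with edgeR 4.0.16 (glmQLFit, glmQLFTest, two-sided, all 6 libraries, no covariate, adjustment over 12968 genes, threshold 0.05) in R 4.3.3, after tests on simulated data. On the simulated data, in which far fewer genes were changed than were called here, the fit recovered 10% of 1.25-fold changes. It recovered 70% of 1.5-fold changes and 92% of 2-fold changes. Each SE was obtained by dividing the log2 fold change by √F. Alternative settings were scaling by RLE, by the upper quartile or by total counts, no filter, filters of 10 counts or 5 CPM in 3 libraries, DESeq2 1.42.0, limma-voom (limma 3.58.1), robust fitting, a block for the replicate number, a lowess correction for exon length in every library (span 0.5), each library left out, and a threshold of 0.01. Every member was named. From each other list the 3 called genes of at least 1 CPM that changed most were named. Results of 1 gene and 1 motif are not reported here. Pola2, Gata2 and Ly6g were named after their values were seen. No pair of replicates was within sampling noise of each other (chi-square over its degrees of freedom, 1.97 to 74.4). Promoters came from RefSeq, overlaps from the tables' exons, and shared stretches from GENCODE M21. Python 3.11.15 drew the figures with matplotlib 3.10.9.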

Additional observations from a re-analysis of the deposited data

How the results depend on the processing

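Of the 10 members called lower, 2 (Cdc20 and Ttk) kept their call in all 17 alternative fits, and 17 members not called were called in at least 1. No called member changed sign. With upper quartile scaling 20 members were lower (median -0.26), and 20 with total counts (median -0.283); 2 were lower at an adjusted p under 0.01, and from 2 to 14 with 1 library left out. Members higher numbered 1 with no filter, 1 with DESeq2, 4 with the length trend removed, and from 0 to 2 with 1 library left out. Over all genes, 4097 were lower with upper quartile scaling, 4520 with total counts (1666 higher) and 1242 at 0.01. Other mitotic genes lower numbered 47, 50 and 11 in those settings, and from 14 to 33 with 1 library left out. The other settings kept counts within 1.5 times. The cause of these shifts was not tested.

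With the replicate number as a block, 10 members were lower and 1 higher. Deviations of same-numbered libraries correlated at 0.306, 0.144 and -0.0703 over all genes, and untreated replicate 2 correlated more with IFN-γ replicate 3 (0.241), so the numbers were not taken to pair the samples. Kif20a had the lowest depth of the members, with 98 to 245 counts.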
